A study of Mus musculus with 55 samples.

Results

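Mpo, Elane, Prtn3, Ctsg, Ms4a3, Calr, Nkg7 and Srgn are genes of the primary granule and of granulocyte-monocyte progenitors (GMP), and their transcripts were followed through sorted populations of mouse bone marrow. The 8 genes were picked by symbol for their known roles, with earlier results of these data known, from the 55421 genes of a count table of RNA-seq libraries, and each symbol was found there. The study asked how loss of Tet2, a dioxygenase that oxidises methylated cytosine in DNA, alters hematopoietic stem/progenitor cells. The first set held 46 libraries of 6 populations, each from 200 sorted cells (per the labels) and marked WT or Tet2 KO, and a second set held 9 libraries of LT-HSC labelled WT, Sting KO or Tet2/Sting double KO (DKO). In the first set each genotype and population had 4 libraries, with 3 for the LT-HSC and ST-HSC labelled WT, and each group of the second set had 3.

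All mice were C57BL/6. The Tet2 KO mice were Tet2 f/f;Mx1-Cre mice, and the DKO mice carried the same alleles on a germline Sting-/- background. Mx1-Cre is driven by an interferon-responsive promoter that is active in blood cells and in other tissues, and Cre was induced with poly(I:C), itself an interferon inducer, in juvenile mice, which were then kept for several months, so that the mice of the first set were adults when cells were taken. Whether the WT mice carried Cre or received poly(I:C) is not given in the sources used here, and the part of induction itself in the values was not tested. The populations were gated on surface proteins: long-term and short-term stem cells (LT-HSC, ST-HSC), common myeloid progenitors (CMP), GMP, megakaryocyte-erythroid progenitors (MEP) and common lymphoid progenitors (CLP). The labels number the libraries within each genotype, and the p-values below measure the spread between these libraries.

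Primary (azurophil) granules are the first granules made by maturing granulocytes, and their contents are transcribed early, at the promyelocyte stage and already in GMP. Myeloperoxidase (Mpo) makes hypochlorous acid from hydrogen peroxide, while neutrophil elastase (Elane), proteinase 3 (Prtn3) and cathepsin G (Ctsg) are serine proteases that are stored in active form. Srgn encodes serglycin, the proteoglycan core on which granule proteins are packed, Calr encodes calreticulin, an endoplasmic reticulum (ER) chaperone that binds newly made Mpo, Ms4a3 encodes a membrane protein used as a marker of GMP and their progeny, and Nkg7 encodes a granule membrane protein of cytotoxic lymphocytes. The transcription factors PU.1 (gene Spi1) and the C/EBP family are known regulators of Mpo, Elane, Prtn3 and Ctsg.

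Elane and Prtn3 lie next to each other on mouse chromosome 10 (mm10), at chr10:79886247-79888215 and chr10:79874476-79883174, both on the plus strand. The other 6 genes lie apart, Mpo at chr11:87793581-87804413, Ctsg at chr14:56099881-56102574, Ms4a3 at chr19:11629496-11640851, Calr at chr8:84841850-84846934, Nkg7 at chr7:43437073-43438249 and Srgn at chr10:62493833-62527451. The 250 bases before the transcription start of the 5 genes with the steepest WT profiles are printed here from the RefSeq annotation of GRCm38.p6, the assembly named mm10 in genome browsers, because Spi1 itself differed between the genotypes. Capitals mark matches of the PU.1 motif GAGGAA or, in Ms4a3 only, of the C/EBP motif TTNNGNAA.
Mpo, chr11:87793534-87793783, plus strand: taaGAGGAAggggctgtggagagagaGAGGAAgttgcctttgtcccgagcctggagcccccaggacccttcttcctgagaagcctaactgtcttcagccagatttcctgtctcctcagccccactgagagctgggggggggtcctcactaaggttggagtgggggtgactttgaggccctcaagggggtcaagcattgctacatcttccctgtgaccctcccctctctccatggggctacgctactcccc
Elane, chr10:79886062-79886311, plus strand: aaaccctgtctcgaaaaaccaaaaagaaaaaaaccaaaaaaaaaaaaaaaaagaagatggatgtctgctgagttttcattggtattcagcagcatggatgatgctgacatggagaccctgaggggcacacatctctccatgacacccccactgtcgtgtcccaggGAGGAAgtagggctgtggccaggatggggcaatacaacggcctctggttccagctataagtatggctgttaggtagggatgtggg
Prtn3, chr10:79879417-79879666, plus strand: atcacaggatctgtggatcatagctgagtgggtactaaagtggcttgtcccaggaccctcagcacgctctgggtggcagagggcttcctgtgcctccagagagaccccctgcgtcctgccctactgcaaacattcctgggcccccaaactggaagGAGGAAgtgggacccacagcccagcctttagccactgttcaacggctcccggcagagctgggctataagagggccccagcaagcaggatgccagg
Ctsg, chr14:56102575-56102824, minus strand: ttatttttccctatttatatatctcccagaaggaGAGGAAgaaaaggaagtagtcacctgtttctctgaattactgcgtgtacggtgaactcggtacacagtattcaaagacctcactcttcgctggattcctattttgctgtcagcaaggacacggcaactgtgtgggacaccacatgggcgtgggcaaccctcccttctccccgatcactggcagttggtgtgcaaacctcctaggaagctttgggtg
Ms4a3, chr19:11640852-11641101, minus strand: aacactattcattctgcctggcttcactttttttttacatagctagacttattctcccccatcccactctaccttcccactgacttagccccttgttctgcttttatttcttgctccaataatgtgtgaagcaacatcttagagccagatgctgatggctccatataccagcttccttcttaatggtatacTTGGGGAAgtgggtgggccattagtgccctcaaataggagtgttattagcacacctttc
Motifs were searched on both strands in windows of 300 bases, from 250 before to 50 after the start, with overlaps allowed. GAGGAA occurred at bases -95 to -90 from the start of Prtn3, -85 to -80 of Elane, -216 to -211 of Ctsg and +36 to +41 of Ms4a3, and at 2 places in Mpo, -247 to -242 and -224 to -219. Prtn3 and Elane thus held the match at nearly the same distance from their starts. No match was found in the windows of Calr, Nkg7 or Srgn, and 28.3% of the 32851 RefSeq windows of this length held one. TTNNGNAA occurred in Ms4a3 at -59 to -52 and +42 to +49 and at a second start of Srgn, against 40.7% of all windows. The letters AACNG, a MYB motif, were present in 80.3% of all windows, the RUNX motif TGTGGT in 16.8% and TATAAA in 13.6%. A match describes the sequence only. The GENCODE gene models of Mpo, Elane and Prtn3 begin upstream of the RefSeq starts, so part of their printed sequence lies inside those models.

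Libraries of the first set held 50458473 to 102148079 counts (median 70118186.5), and those of the second 26775681 to 78680486. Levels are given as CPM, counts relative to the library total and scaled by edgeR's TMM factors. Amplified cDNA of so few cells without molecular identifiers does not yield independent molecules, and in bulk samples fewer cells of a type and less RNA per cell cannot be told apart. Tet2 reads did not mark the genotype: Tet2 stood at 33.0–41.2 CPM in WT GMP and 39.5–60.1 in Tet2 KO GMP, and at 17.3–23.5 in WT CMP and 6.05–25.8 in Tet2 KO CMP. The counts cover the whole gene, of which a conditional allele deletes a part, so they cannot check the labels, and the libraries are named by label throughout. Erythroid and monocyte marker lists followed the sort in the myeloid gates. Summed megakaryocyte markers did not, at 19.3–179 CPM in WT MEP and 527–816 in WT CMP. Summed erythroid markers were 17370–19493 CPM in WT MEP and 37.0–124 in GMP of both genotypes, and summed monocyte and macrophage markers were 1643–2282 CPM in WT GMP and 328–732 in WT CMP. Summed markers of mature neutrophils stayed at 44.1–105 CPM in WT GMP. The CLP libraries departed from each other, as described below. Summed CLP markers were 651–1313 CPM in WT CLP and at most 207 in any library of the other WT populations, with Il7r at 371–649 CPM in WT CLP, while Rag1, another defining lymphoid gene, had 0 counts in all 4.

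In WT cells, transcripts of Mpo and of the serine proteases formed a steep gradient that peaked in GMP. Mpo, the most abundant member before any correction for length, stood at 19100, 20702, 18706 and 25182 CPM in the 4 WT GMP libraries. CMP held 1928, 2281, 2895 and 2325 CPM. The lowest GMP library therefore exceeded the highest CMP library by a wide margin. Mpo reached 61.7–89.4 CPM in ST-HSC, 7.50–32.3 in MEP and only 3.16–6.02 in LT-HSC, and none of these 3 ranges overlapped the CMP range. Elane fell more steeply, from 9121, 9439, 7015 and 9875 CPM in GMP to 401, 352, 370 and 306 CPM in CMP. In the stem cells it was near the detection floor, at 0.379–7.76 CPM in ST-HSC and 0.745–1.56 in LT-HSC, and its levels in ST-HSC, MEP and LT-HSC overlapped.

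Between WT GMP and WT CMP, 6 of the 8 members passed the test (edgeR quasi-likelihood, Benjamini-Hochberg adjusted p under 0.05 and at least 2-fold), all higher in GMP, beside 8.14% of the 16284 genes tested that were called higher. Elane was 25.3-fold higher (95% interval 20.8 to 30.7, adjusted p = 5.856e-08). Ms4a3 was 14.3-fold higher (10.2 to 20.1), with 814, 942, 1102 and 1115 CPM in GMP and 83.6, 81.4, 73.8 and 44.8 in CMP. Mpo was 9.05-fold higher (7.27 to 11.3, adjusted p = 1.388e-06). The intervals of Elane and Mpo did not overlap, so transcripts for proteins of the same granule did not keep a fixed proportion across these gates. Prtn3 was 5.51-fold higher, at 1664, 1489, 1484 and 2093 CPM in GMP against 227, 330, 418 and 269 in CMP. Ctsg was 3.62-fold higher, at 4012, 4011, 3918 and 4824 CPM in GMP against 1119, 1048, 1502 and 1058 in CMP. The chaperone gene Calr was 3.04-fold higher (2.61 to 3.53), at 1574–1896 CPM in GMP and 513–612 in CMP. A fit of all 46 libraries together, with a single spread for every population, called only 1 member here, Calr, with fold changes close to these (Elane 4.63 and Mpo 3.15 on the log2 scale).

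The remaining members took other courses. Nkg7 was 1.68-fold higher in WT GMP (596–758 CPM) than in CMP (364–424), which passed the adjusted p (5.756e-04) but not the fold. Srgn, the packing proteoglycan, did not follow the proteins it packs. It stood at 1595, 1764, 2007 and 1866 CPM in GMP and 1904, 1825, 1641 and 1647 in CMP, overlapping ranges with a difference of 0.08 on the log2 scale (95% interval -0.15 to 0.31). Its highest levels were in ST-HSC, at 2797, 3219 and 3013 CPM, and LT-HSC, at 2336, 2881 and 2761, where Elane and Ctsg stayed under 10 CPM. GMP were lower than ST-HSC by -0.80 (adjusted p = 0.00122) and than LT-HSC by -0.61 (adjusted p = 0.00497), both under 2-fold.

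**Figure D1:**
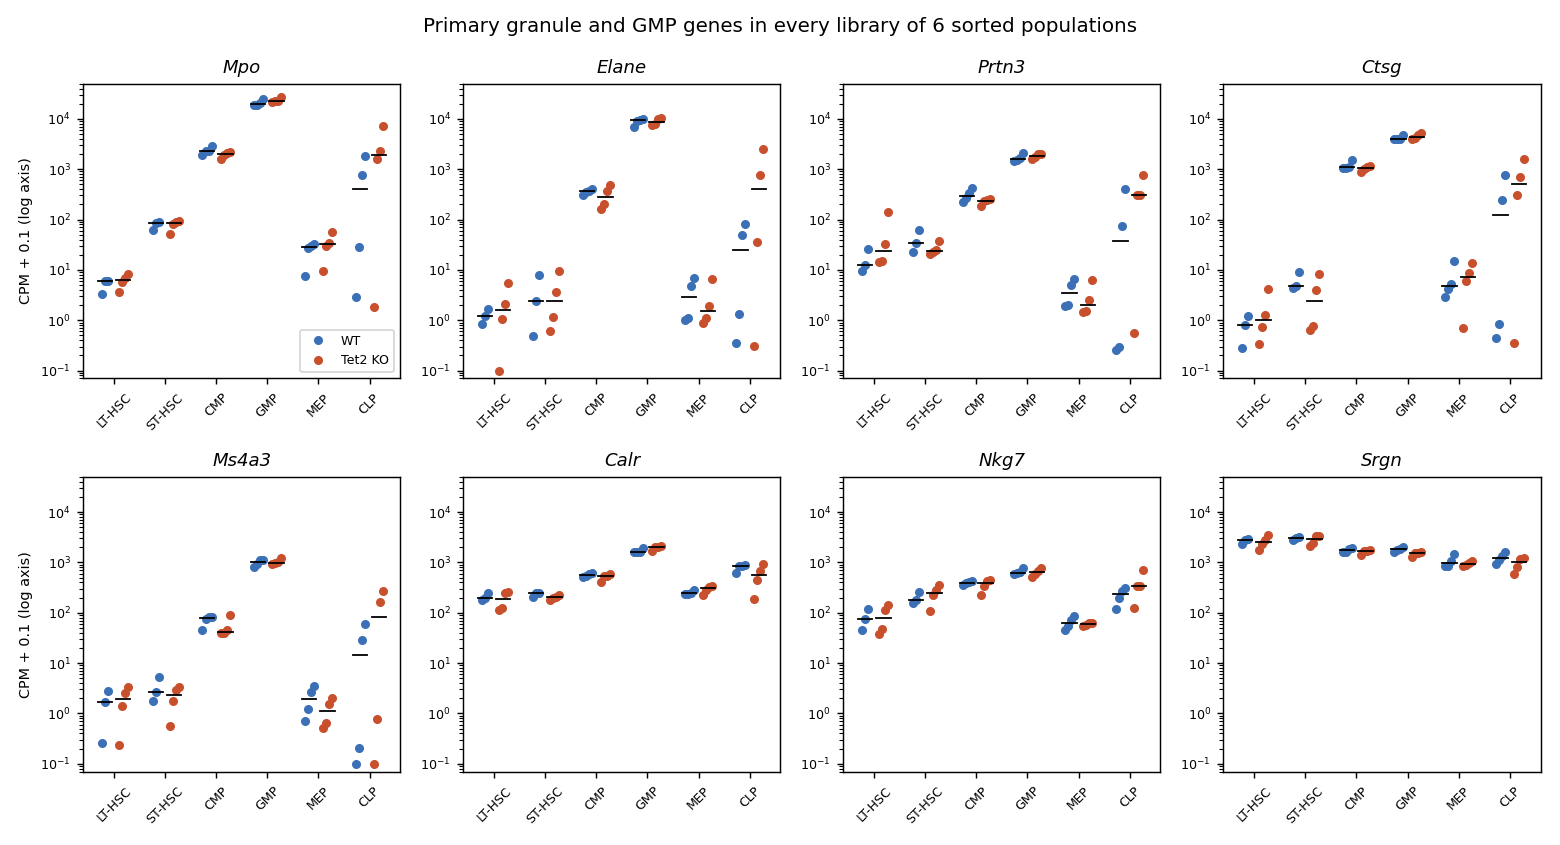
Levels of the 8 members, 1 panel each, in every library of the first set. The vertical log axis gives CPM + 0.1 and the horizontal axis the 6 populations, with separate colours for WT and Tet2 KO. Mpo and the proteases peak in GMP and spread most widely in CLP, while Srgn is highest in ST-HSC and LT-HSC.

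Against the other WT populations most members were again higher in GMP. GMP exceeded MEP for 7 of 8 members (18% of 16094 genes were called higher), ST-HSC for 7 (18.1%) and LT-HSC for 7 (19.2%), and in each case Srgn was the member not called. The log2 difference from LT-HSC was 12.86 for Elane, 12.58 for Ctsg, 11.95 for Mpo, 9.37 for Ms4a3, 6.67 for Prtn3, 2.96 for Nkg7 and 2.95 for Calr. Prtn3 thus differed least among the 3 serine proteases. CMP already exceeded ST-HSC for 6 members (7.7% of 16428 genes called higher), with log2 differences of 7.60 for Ctsg, 6.68 for Elane, 4.91 for Mpo, 4.49 for Ms4a3, 2.98 for Prtn3 and 1.28 for Calr. The fit of all 46 libraries called 4 there, without Prtn3 (adjusted p = 0.2374) and Ms4a3 (adjusted p = 0.1335), and Nkg7, at 0.99, passed 2-fold in 5 other alternatives. CMP exceeded MEP for 7 members (11.1% of 15547). From ST-HSC to CMP the order of Ctsg (7.60) and Elane (6.68) was not stable. With 1 library left out Ctsg ran from 7.41 to 8.03 and Elane from 6.15 to 8.11, ranges that overlap. From CMP to GMP the difference of Elane (4.66) was above that of Ctsg (1.86). Only Elane, 7.97 higher (SE 1.76, adjusted p = 0.0133), and Nkg7, 1.41 higher (SE 0.29, adjusted p = 0.00949), were called between GMP and CLP, beside 9.11% of 15433 genes called higher. Calr passed the adjusted p (0.0066) but not the fold, at 0.93, and Mpo stood at 4.91 (SE 1.60, adjusted p = 0.0718). The fit of all 46 libraries called 7 members there, DESeq2 4 and the fit blocked on replicate number 1.

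Levels per kilobase used the exons of all annotated transcripts of a gene, merged. Which transcripts were expressed was not examined, so the order of genes holds for these lengths only. Per kilobase of exon, Elane led in WT GMP at 9007 ± 1290 CPM per kb (SD, n = 4), followed by Mpo at 6111 ± 867, Ctsg at 4057 ± 411 and Prtn3 at 971 ± 165. In WT CMP the order was different. Ctsg led at 1144 ± 209 CPM per kb, Srgn followed at 799, Mpo at 688 ± 117, Nkg7 at 431 and Elane at 363. In LT-HSC Srgn stood at 1211 CPM per kb, against 9.14 ± 5.18 (n = 3) for Prtn3 and 1.48 for Mpo. Mpo, Elane, Prtn3, Ctsg and Ms4a3 together took 3.63–4.72% of all counts in WT GMP, 0.403–0.590% in WT CMP and 0.00220–0.00343% in WT LT-HSC.

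Ratios within a library, which do not depend on scaling, showed the same change of make-up. For every 100 Mpo counts, WT CMP held 12.8–20.8 Elane counts and WT GMP 37.5–47.8. Ctsg went the opposite way, from 45.5–58.0 per 100 Mpo counts in CMP to 19.2–21.0 in GMP. Prtn3 went from 11.6–14.5 to 7.19–8.71. On the log2 scale the Elane to Mpo ratio was 1.47 higher in GMP than in CMP, the Ctsg ratio -1.32 and the Prtn3 ratio -0.70. Each had p = 0.02857 in an exact two-sided permutation test of 4 against 4 libraries, the smallest p that this test gives. After Benjamini-Hochberg adjustment over 8 tests each was 0.03809. The permutation took all libraries as independent. CMP and GMP libraries share replicate numbers, and if a number stands for a single mouse these p-values do not account for it. Tet2 KO libraries gave 1.41, -1.45 and -0.58, with the same p-values. The Ms4a3 ratio was 0.68 higher in WT (exact permutation p = 0.05714) and 0.79 higher in Tet2 KO (exact permutation p = 0.1429), which missed the threshold. In LT-HSC the balance lay elsewhere: WT LT-HSC held 154–823 Prtn3 counts per 100 Mpo counts, so that Prtn3 counts exceeded those of Mpo in each library. In WT ST-HSC the ratio was 26.4, 69.9 and 55.7, and per kilobase of exon the mean levels were 23.0 ± 4.36 CPM per kb for Mpo and 23.0 ± 11.9 for Prtn3 (SD, n = 3).

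**Figure D2:**
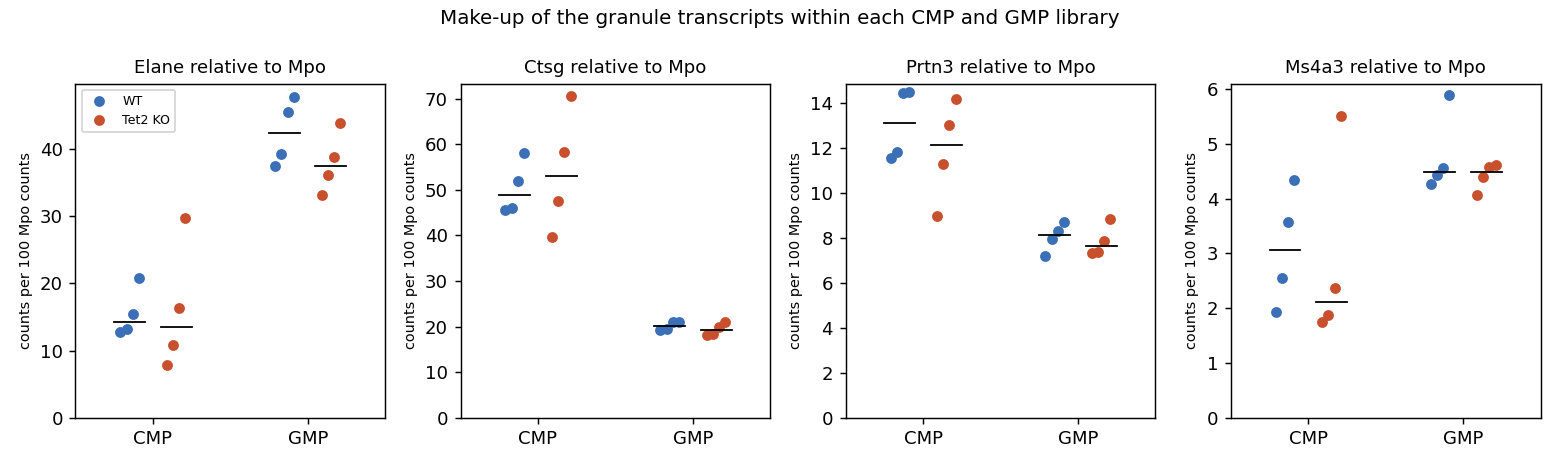
Counts of Elane, Ctsg, Prtn3 and Ms4a3 per 100 Mpo counts (vertical axis) in each CMP and GMP library, coloured by genotype label. Elane rises from 12.8–20.8 in WT CMP to 37.5–47.8 in WT GMP while Ctsg falls from 45.5–58.0 to 19.2–21.0. The Tet2 KO libraries change in the same directions but spread more widely in CMP, at 7.87–29.8 for Elane and 39.7–70.7 for Ctsg.

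Between Tet2 KO and WT, 0 of the 8 members were called and 0 had libraries that did not overlap, in each of the 6 populations, by edgeR. All genes tested gave 4.57% called in CMP, 4.38% in GMP and 4.36% in MEP, but only 0.0245% in LT-HSC, 0.0185% in ST-HSC and 0.00766% in CLP. Groups did not overlap for 15.8% of genes in CMP, 13.3% in GMP, 13% in MEP, 7.08% in LT-HSC, 8.14% in ST-HSC and 3.89% in CLP. The median log2 difference of the members was 0.29 in LT-HSC, -0.11 in ST-HSC, 0.04 in GMP and -0.15 in MEP, beside 0.06, 0.04, 0.03 and 0.05 for all genes. In CLP it was 1.504, with 6 of 8 positive, beside 0.07 for all genes. DESeq2 also called 0 members in each population. At an unadjusted p under 0.05 the count was 1 in CMP, Prtn3, 1 in GMP, Srgn, and 0 in the other populations. The edgeR fit of all 46 libraries called 1 member, Elane in CLP (adjusted p = 0.04345).

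In GMP, where the granule genes are most abundant, the genotypes lay close together. Mpo stood at 21807, 22292, 22474 and 26604 CPM in Tet2 KO GMP, within or just above the WT libraries, and differed by 0.12 on the log2 scale (95% interval -0.09 to 0.33). Elane stood at 7893, 9768, 7459 and 10318 CPM and differed by -0.03 (-0.30 to 0.23). Prtn3 stood at 1598, 1970, 1763 and 1961 CPM and Ctsg at 4025, 4704, 4077 and 5281. Ms4a3 stood at 958, 1020, 912 and 1228 CPM and Nkg7 at 516, 681, 583 and 773. Each of these ranges overlapped the WT range. The intervals of Prtn3 (0.08, -0.17 to 0.34), Ctsg (0.07, -0.15 to 0.29), Ms4a3 (0.01, -0.27 to 0.30), Calr (0.18, -0.03 to 0.38) and Nkg7 (-0.06, -0.34 to 0.22) all left out a 2-fold change in either direction. The largest difference was that of Srgn, at 1555, 1523, 1264 and 1630 CPM in Tet2 KO GMP, or -0.31 (SE 0.11, unadjusted p = 0.01466, adjusted p = 0.139). Only its highest Tet2 KO library lay within the WT range of 1595–2007.

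In CMP all 8 members had a negative log2 difference, with a median of -0.23 beside 0.03 for all genes, but the adjusted test called 0 of them. Mpo stood at 1888, 2231, 2085 and 1617 CPM in Tet2 KO CMP, against 1928–2895 in WT. Prtn3 stood at 246, 251, 186 and 229 CPM, against 227–418 in WT, a difference of -0.46 (SE 0.19, 95% interval -0.89 to -0.03, unadjusted p = 0.03712, adjusted p = 0.22). Elane was more variable in Tet2 KO CMP, at 204, 364, 164 and 481 CPM, than in WT CMP (306–401), and the Tet2 KO range enclosed the WT range. Ms4a3 stood at 44.8, 38.9, 38.9 and 89.0 CPM against 44.8–83.6 in WT, and Ctsg at 1099, 887, 993 and 1143 against 1048–1502. Nkg7 ranged from 225 to 443 CPM and Srgn from 1387 to 1795. Markers of another lineage moved in the same libraries: summed erythroid markers were 3831–7495 CPM in Tet2 KO CMP and 907–2481 in WT CMP. Of 11 erythroid markers 3 were called higher and 1 lower, beside 105 higher and 629 lower of all 16047 genes. Summed monocyte and macrophage markers were 179–479 CPM against 328–732. Summed mast cell and basophil markers were 252–534 CPM against 144–188, with Cpa3, a mast cell protease, higher by 1.44 (adjusted p = 0.003993). Their part in the CMP values was not tested.

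In the stem cell gates and in MEP, most members were at low levels in both genotypes. Mpo stood at 3.56, 8.09, 5.77 and 6.68 CPM in Tet2 KO LT-HSC and at 88.1, 50.7, 83.0 and 93.3 in Tet2 KO ST-HSC, ranges that enclose or overlap those of WT. In MEP, a branch that does not make granulocytes, Mpo stood at 29.3, 27.1, 32.3 and 7.50 CPM in WT and 30.1, 55.3, 34.2 and 9.23 in Tet2 KO, and replicate 5 was lowest under both labels. Elane in Tet2 KO LT-HSC ranged from 0 to 5.43 CPM. Srgn remained abundant, at 1794, 2768, 3458 and 2373 CPM in Tet2 KO LT-HSC and 2141, 3395, 3380 and 2477 in Tet2 KO ST-HSC. In LT-HSC the widest difference was that of Prtn3, 9.24, 12.2 and 26.0 CPM in WT and 15.2, 14.2, 140 and 32.3 in Tet2 KO, or 1.68 (SE 0.85, 95% interval -0.25 to 3.62). A single library carried most of it, and without it the difference was 0.42. Nkg7 in ST-HSC ranged from 108 to 350 CPM in Tet2 KO and 155 to 258 in WT.

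**Figure D3:**
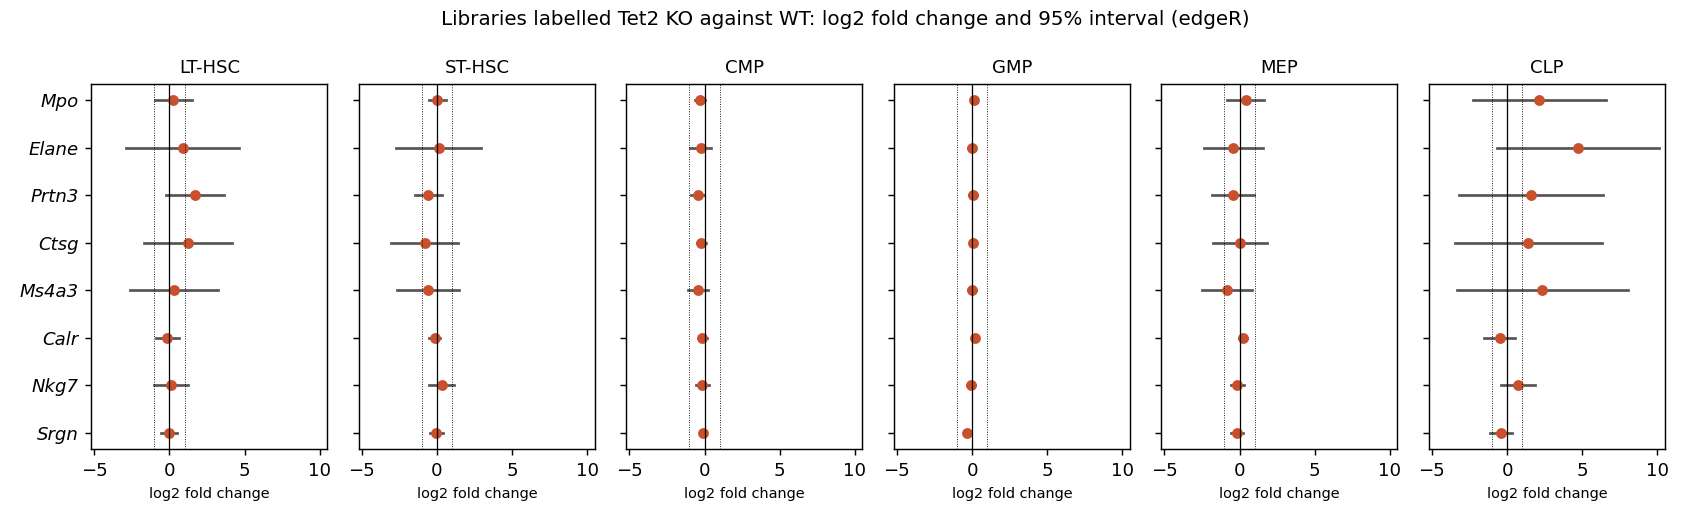
Log2 fold change of Tet2 KO against WT for each member (rows) in each population (panels), with its 95% interval from edgeR. Dotted lines mark 2-fold. The GMP intervals are narrow and lie within 2-fold, whereas those in CLP span several log2 units.

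Whether the genotype difference of a member departed from its mean in the other populations was tested as an interaction in a fit of the 46 libraries. By edgeR 0 of 8 members were called in each population, beside 0.157% of all 22360 genes in LT-HSC, 0.103% in ST-HSC, 0.085% in CMP, 0.25% in GMP, 0.519% in MEP and 5.82% in CLP. The member nearest the threshold was Elane in CLP, at 4.62 (SE 1.54, unadjusted p = 0.00485, adjusted p = 0.0699), the only member at an unadjusted p under 0.05 in any of the 6 tests. DESeq2 called it, at 4.59 (adjusted p = 0.005897), as did edgeR without Tet2 KO CLP replicate 2 or replicate 4. With each library left out the edgeR value ran from 2.98, without Tet2 KO CLP replicate 3, to 5.56, without WT CLP replicate 2, and neither was called.

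That value rests on CLP libraries that differed from each other by orders of magnitude. Mpo stood at 1797, 764, 2.76 and 28.3 CPM in WT replicates 2 to 5 and at 1.71, 7154, 1595 and 2287 CPM in the Tet2 KO replicates. Both genotypes thus held libraries almost without Mpo and libraries with Mpo near or above CMP levels, and Tet2 KO replicate 3 reached 35.9% of the WT GMP median. Elane stood at 81.1, 48.9, 1.26 and 0.256 CPM in WT and at 0.208, 2565, 35.4 and 778 in Tet2 KO. In the fit of the CLP libraries alone its difference was 4.74 (SE 2.37, 95% interval -0.63 to 10.1) and was not called. This difference was 3.03 without Tet2 KO replicate 3 and 5.64 without WT replicate 2. The make-up also varied. Tet2 KO replicates 3 and 5 held 35.8 and 34.0 Elane counts per 100 Mpo counts, values in or near the Tet2 KO GMP range of 33.2–43.8. Tet2 KO replicate 4 held 2.22, and WT replicates 2 and 3 held 4.51 and 6.40, below the 7.87–29.8 of Tet2 KO CMP and the 12.8–20.8 of WT CMP. Prtn3 and Ctsg followed Mpo, with 0.157 and 0.754 CPM in WT replicate 4 and 760 and 1573 in Tet2 KO replicate 3. Ms4a3 reached 272 CPM in Tet2 KO replicate 3 and 164 in replicate 5 but 0.672 in replicate 4, although that library held 1595 CPM of Mpo. Calr, by contrast, was 630–904 CPM in WT CLP and 186–934 in Tet2 KO CLP, and Nkg7 was highest, 708 CPM, in Tet2 KO replicate 2, where Mpo was lowest.

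Marker lists of other lineages moved with these levels in part. Tet2 KO replicates 3 and 5 held 1495 and 409 CPM of summed megakaryocyte markers, against 0.156–8.36 in the other 6 CLP libraries. WT replicates 2 and 3, the WT libraries with Mpo, held 2911 and 2820 CPM of summed mast cell and basophil markers, against 18.7 and 60.9 in WT replicates 4 and 5 and 6.27–643 in Tet2 KO. Summed T and NK cell markers reached 4660 CPM in Tet2 KO replicate 2, the library with the most Nkg7, and 491–1165 elsewhere. Monocyte and macrophage markers stood at 761–2265 CPM in the WT libraries and 207–2383 in Tet2 KO, lowest in replicate 2, where Mpo was also lowest, and mature neutrophil markers at 0–62.7 CPM in all 8. Summed CLP markers were lowest, 465 CPM, in Tet2 KO replicate 3. The part of these markers in the granule gene values was not tested.

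**Figure D4:**
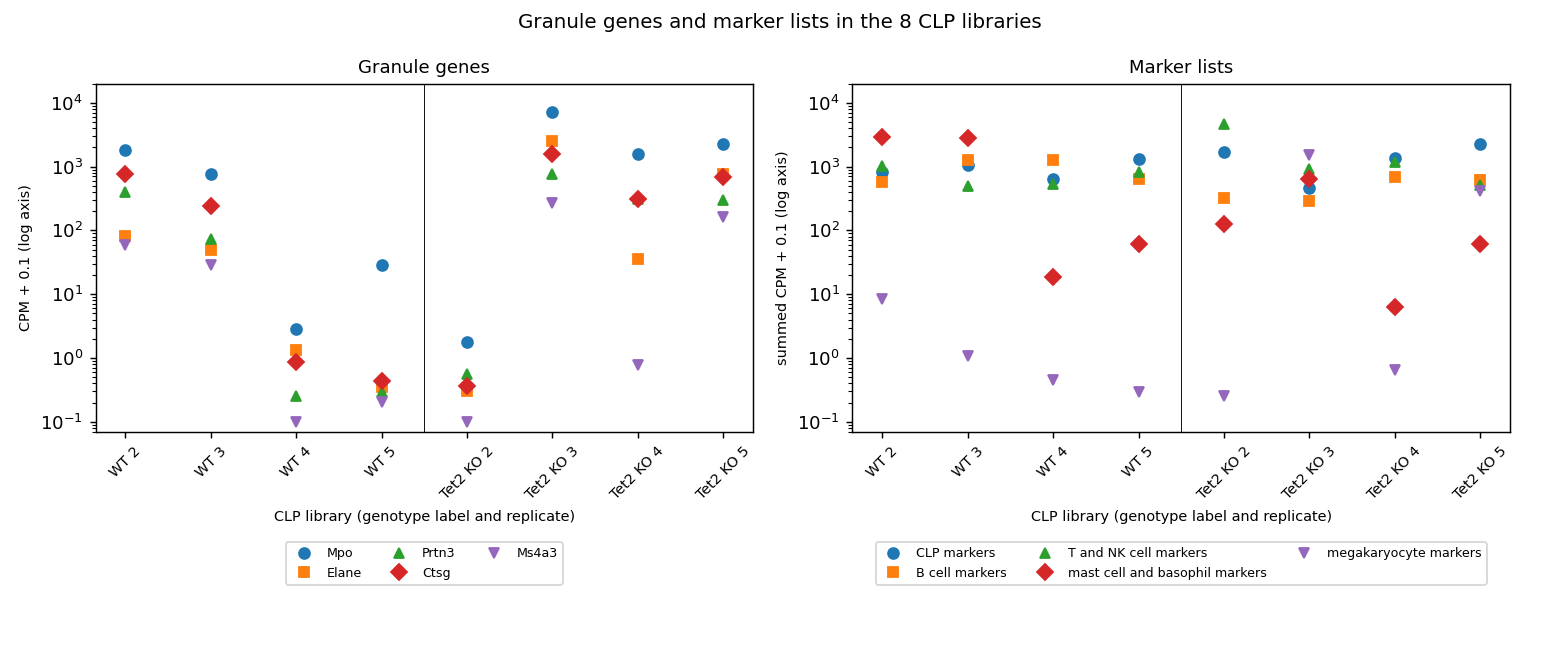
Granule genes (left) and summed marker lists (right) in the 8 CLP libraries, on log axes of CPM + 0.1. Mpo spans 1.71 to 7154 CPM. Libraries with more than 1 CPM of Ms4a3 are WT replicates 2 and 3 and Tet2 KO replicates 3 and 5, and megakaryocyte markers stand out in the latter pair.

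Of the listed transcription factors, 12 in all, 4 were higher and 1 lower in WT GMP than in WT CMP, beside 8.14% of all genes higher and 866 of 16284 lower. Cebpe, a factor of late granulocyte maturation, was 5.51 higher on the log2 scale (SE 0.57, adjusted p = 1.276e-04), Irf8, a monocyte factor, 1.55 (SE 0.34, adjusted p = 0.00749) and Spi1 1.04 (SE 0.13, adjusted p = 3.909e-04). Gfi1, a repressor needed for granulocytes, was 2.92 higher and Klf4, a monocyte factor, 1.45 lower, or -1.45, and both were named after their values were seen. The Spi1 difference fell under 2-fold without GMP replicate 2 or 5 or CMP replicate 3 (0.95 at the lowest). The fit of all 46 libraries called none of these 5.

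Between the genotypes, Spi1 was the only factor of the list called, and its transcript was lower in Tet2 KO in the 3 myeloid populations, while the granule genes described above were not called. Most calls there were in that direction: of all genes, 105 were higher and 629 lower in CMP, 51 and 674 in GMP, and 22 and 629 in MEP. PU.1 protein was not measured. In GMP Spi1 stood at 177–243 CPM in WT and 32.3–36.3 in Tet2 KO, a log2 difference of -2.61 (SE 0.12, adjusted p = 1.191e-06). In CMP it stood at 89.4–119 against 9.37–16.3 CPM, -3.08 (SE 0.19, adjusted p = 2.89e-05), and in MEP at 7.10–8.16 against 0.181–0.973, -3.50 (SE 0.50, adjusted p = 0.002997). The groups were far apart in each. In LT-HSC (-0.10), ST-HSC (0.68) and CLP (0.25) it was not called. Spi1 was 1 of 258 genes called lower in CMP, GMP and MEP alike, of 13911 tested in all 3. These were 42.6% of the 606 lower genes in CMP, 40.1% of the 644 in GMP and 41.5% of the 622 in MEP.

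Folding partners of Calr in the ER, a list of 16 chaperones, disulfide isomerases and their regulators, was compared along the WT hierarchy. In GMP 10 of 16 were higher than in CMP and 0 lower (median 1.39), beside 8.14% of all genes called higher, among them P4hb (1.94, SE 0.10), Pdia3 (1.54) and Hsp90b1, at 738 ± 120 CPM (SD, n = 4) against 268 ± 29.6. Between CMP and MEP, where Calr was called, 0 of the 16 were, beside 11.1% of 15547 genes called higher in CMP. The list still leaned towards CMP, with 14 of 16 positive and a median of 0.36 beside 0.07 for all genes. Against CLP the list went the other way from Calr, with 8 lower and 0 higher in GMP, beside 1148 lower of the 15433 genes tested, among them Hsp90b1 (-1.72), the stress response factor Xbp1 (-3.66) and Creld2 (-3.49). In Tet2 KO cells 5 of 16 were lower in CMP, 3 in GMP and 5 in MEP, and 0 were higher, beside 629 lower of 16047 genes in CMP, 674 of 16563 in GMP and 629 of 14934 in MEP. The list had medians of -0.48, -0.14 and -0.28 beside 0.03, 0.03 and 0.05 for all genes. In LT-HSC, ST-HSC and CLP 0 were called by edgeR, with medians of -0.30, -0.12 and -1.12. Markers of the gate itself moved in Tet2 KO MEP. Of 11 erythroid markers 3 were lower, Klf1 (-3.13), Hba-a2 (-1.47) and Hba-a1 (-1.38), and 0 higher. The megakaryocyte marker Gp1bb was also lower (-4.86). Summed erythroid markers were 18201–24060 CPM in Tet2 KO MEP and 17370–19493 in WT MEP. Their part in the MEP values was not tested. Pdia3, a disulfide isomerase that works with calreticulin on glycoproteins, stood at 330–414 CPM in WT CMP and 69.6–143 in Tet2 KO CMP (-1.87, SE 0.21, adjusted p = 7.88e-04), and at 254–388 against 51.9–105 in MEP (-2.18, SE 0.23). In GMP it stood at 1009–1230 against 680–956 CPM, which passed the adjusted p but not the fold (-0.54, adjusted p = 0.0141).

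The other called partners of Calr were secreted or luminal ER proteins and their regulators. Creld2 was lower by -2.50 in CMP, -1.59 in GMP and -2.64 in MEP. Sdf2l1 was lower by -2.39 in CMP and -2.79 in MEP, Xbp1 by -1.94 in CMP and -2.76 in GMP, Dnajc3 by -1.11 in CMP, -1.88 in GMP and -1.11 in MEP, and Manf by -1.59 in MEP. In MEP Xbp1 gave -2.91 and was not called (adjusted p = 0.08524), but was called by DESeq2 (adjusted p = 0.01298), in the fit of all 46 libraries and without Tet2 KO MEP replicate 2. Dnajc3 in CMP lost its call in 9 alternatives and Manf in 3, and the fit of all 46 libraries lost Xbp1 in CMP and GMP and Creld2 in GMP. Calr itself was not called: it stood at 540, 589, 535 and 407 CPM in Tet2 KO CMP, 1679, 1991, 2002 and 2074 in Tet2 KO GMP, and 289, 337, 323 and 230 in Tet2 KO MEP, against 244, 241, 239 and 281 in WT MEP. Its log2 differences were -0.14, 0.18 and 0.22. P4hb gave -0.10, -0.01 and 0.01 and was named after its values were seen.

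**Figure D5:**
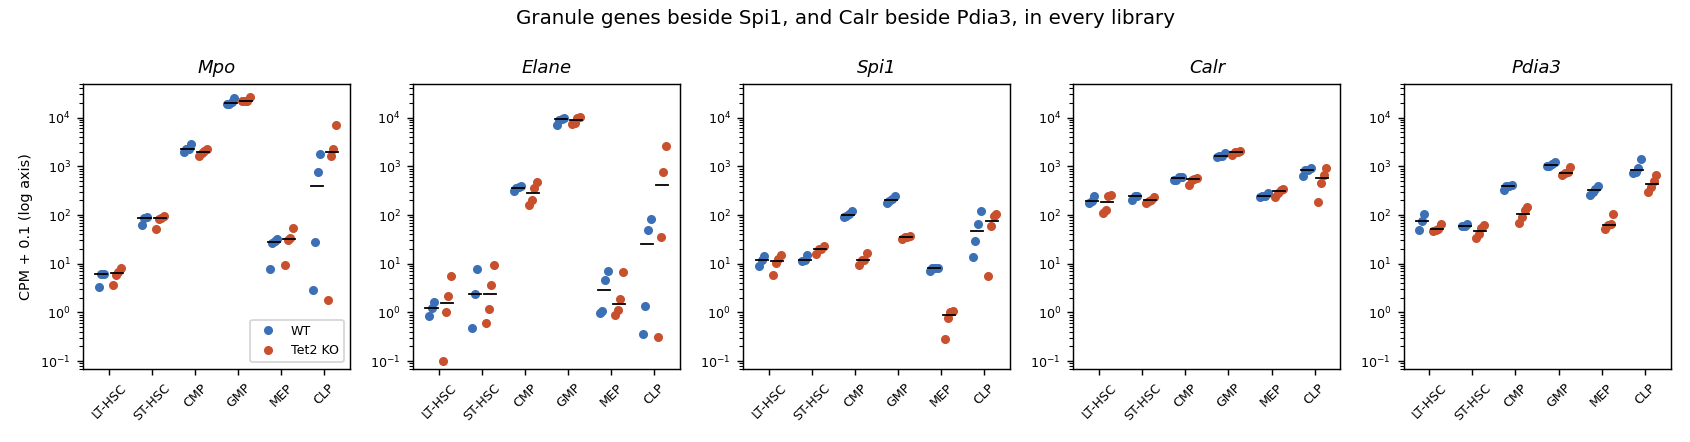
Levels (CPM + 0.1, log axis) of granule genes beside Spi1, and of Calr beside Pdia3, in every library by population and genotype label. Spi1 separates the genotypes in CMP, GMP and MEP, and Pdia3 in CMP, GMP and MEP (under 2-fold in GMP), whereas the Calr libraries overlap.

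Proteins that process, inhibit or share the compartment of the granule enzymes were compared from 2 further lists. Of 7 tested genes for protease processing and inhibition, 3 were higher in WT GMP than CMP, the serine protease Prss57 (2.87), the secreted inhibitor Slpi (1.97) and the cystatin Cst7 (1.29). The median log2 difference of the 7 tested genes was 0.65 and that of all genes 0.03. The fit of all 46 libraries called none of the 3 higher genes. Of 22 tested lysosomal enzymes and membrane proteins, 9 were higher and 0 lower (median 0.75), beside 8.14% of all genes higher and 866 of 16284 lower, among them Hexa (1.33), Ctsd (1.16) and Ctsz (1.15). In Tet2 KO cells Slpi was lower in CMP (-1.61, SE 0.30, adjusted p = 0.0119), and the lysosomal membrane gene Lamp1 (-2.40, SE 0.45, adjusted p = 0.00738) was lower in GMP. Slpi lost its call in the fit blocked on replicate number and in that of all 46 libraries. No gene of these lists was called in LT-HSC, ST-HSC or CLP.

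Across the 46 libraries, log2 CPM of the granule genes rose and fell together, as a description over libraries that share populations and depth. Among 8870 genes with a mean of at least 10 CPM, those most like Mpo were Gm11505 (Pearson r = 0.99), Ctsg (0.96), Elane (0.95), Csf1r (0.93) and Fcgr3 (0.93). Gm11505 is an antisense transcript that shares 512 exon bases with Mpo, and since the counting is not stated to use strand, its reads, 220–403 CPM in WT GMP, and those of Mpo cannot be told apart there. Likewise Plppr3, on the strand opposite Prtn3, shares 159 exon bases with it and stood at 40.1–84.5 CPM in WT GMP. Elane was most like Ctsg (0.96), Mpo, Fcgr3 (0.93), Ms4a3 (0.93) and Gm11505. Ctsg was most like Mpo, Elane, Fcgr3 (0.96), Gm11505 (0.95) and F13a1 (0.93), and Ms4a3 like Elane (0.93), Mpo (0.92), Ctsg (0.90), Fcgr3 (0.90) and Gm11505. Prtn3 had other neighbours, Anxa3 (0.94), Ms4a6c (0.92), Igsf6, Ms4a3 and Mfsd13a (each 0.89). Calr was most like P4hb (0.97), Slc35c2 (0.93), Pfkl (0.93), Gusb (0.92) and Arhgdia (0.92). Among the genes most like Nkg7 were Tyrobp (0.89), Clec12a (0.88), Pgam1-ps2 (0.87) and Hp (0.85), and Srgn was most like Myl12b (0.88), Glrx (0.85), S100a11, Ldhb and Cd63 (each 0.84). With the other 7 members Srgn had r between -0.31 and 0.16.

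In the second set, only LT-HSC were sorted, and their WT libraries are not those of the first set. Tmem173, the gene of Sting, went against the labels in part, with 1788, 1168 and 0 counts under the WT label, 6333, 0 and 3835 under Sting KO and 0, 14 and 1128 under DKO, so no direction is drawn from the Sting label. Tet2 did not mark the labels either, with 977, 0 and 0 counts under WT, 498, 1729 and 91 under Sting KO and 1342, 1433 and 56 under DKO, and values below compare libraries by label only. After the low-count filter 7 of the 8 members were tested among 10918 genes, Ms4a3 having been removed. By edgeR 0 were called in DKO against Sting KO (0.687% of all genes), 0 in DKO against WT (1.13%) and 0 in Sting KO against WT (0.00916%). At an unadjusted p under 0.05 the counts were 0, 1 and 1. Both DKO comparisons share the DKO libraries, and both comparisons with WT the WT libraries.

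Most libraries of the second set were nearly free of Mpo, at 0.414–1.29 CPM, but the library labelled WT replicate 1 held 26.4 CPM and DKO replicate 2 held 54.1. The same pair held Elane, 116 and 40.5 CPM, and Ctsg, 49.6 and 31.1 CPM, while the other 7 libraries stayed under 1 CPM for both. Summed mature neutrophil markers stood at 273 and 144 CPM in that pair and 14.2–164 in the rest. Their part was not tested. Prtn3 was also present in libraries nearly free of Mpo, although within WT and within DKO it was highest in the library that held Mpo. It stood at 122, 16.4 and 89.8 CPM in WT, 0.342, 90.6 and 141 in Sting KO and 76.7, 633 and 341 in DKO. The DKO range overlapped both others, and the difference from Sting KO was 2.18 (SE 1.40, adjusted p = 0.669). Srgn stood at 4250, 3467 and 3442 CPM in DKO, above all WT (1650, 3063 and 2215) and Sting KO libraries (2997, 2452 and 2713). The Srgn difference from WT was 0.69 (SE 0.23, 95% interval 0.18 to 1.20, unadjusted p = 0.01321, adjusted p = 0.213), under 2-fold and not called. Over all genes, groups did not overlap for 2518 of 10918 in DKO against WT for 1846 in DKO against Sting KO and for 1386 in Sting KO against WT, where Elane was the only member without overlap (0.312–0.493 CPM against 0.501–116). The other member without overlap in DKO against WT was Nkg7, at 117, 78.6 and 120 CPM in DKO and 60.8, 47.5 and 44.8 in WT (1.04, SE 0.65, adjusted p = 0.5456). Calr ranged from 166 to 557 CPM over the 9 libraries, and Nkg7 from 36.9 to 112 in Sting KO.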

How the data were processed

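Per the labels, RNA from 200 sorted cells a library was amplified with a SMART-seq kit for full-length cDNA. The study's methods give another cell number and a modified SMART-Seq2 protocol. The authors trimmed reads with Trim Galore (0.6.7 in the submitters' processing notes, an older version in the study's methods), aligned them with HISAT2 to mm10 and deposited raw counts per gene. The counting tool, annotation and use of strand are not given in the sources used here. Both deposited tables hold counts, and 0 columns of other samples were present. From the second table, 2 broken lines and 4 rows of repeated symbols were left out.

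The test was edgeR's quasi-likelihood test (edgeR 4.0.16, R 4.3.3) on genes kept by filterByExpr, with TMM scaling and Benjamini-Hochberg adjustment over every gene tested. A gene was called at adjusted p under 0.05 and at least 2-fold, the thresholds of the study, and an interaction at adjusted p under 0.05. DESeq2 1.42.0 was an alternative. Each pairwise comparison of the first set was fitted on its own libraries, and the 3 groups of the second set shared a fit. Log2 CPM used a prior count of 2. Exon lengths and overlaps came from GENCODE vM21, which held 55154 of the 55421 gene IDs. Scripts were tested on simulated counts. The members and gene lists were chosen with earlier results of these data known. Beyond the members, genes were named if called in a genotype comparison, if among the 3 most abundant called genes of a list in a WT comparison, or if among the 5 most correlated with a member. Some genes that this rule names are not reported here.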

Additional observations from a re-analysis of the deposited data

Results flagged for a closer look

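In 80 groups of 4 libraries (8 members), the highest or lowest library was compared with its nearest neighbour by Dixon's ratio at its 95% critical value. In 7 groups a library stood apart, and chance alone gives about 1 in 20. WT replicate 5 accounted for 4 of them. In WT GMP it was highest for Calr, 1896 CPM against 1574–1621 in the other libraries, and for Ctsg, 4824 against 3918–4012. In WT MEP it was highest for Calr, 281 CPM against 239–244, and lowest for Mpo, 7.50 against 27.1–32.3. Tet2 KO replicate 5 was highest for Mpo in GMP, 26604 CPM against 21807–22474, and for Ms4a3 in CMP, 89.0 against 38.9–44.8. Tet2 KO replicate 2 was lowest for Prtn3 in CLP, 0.456 CPM against 304–760.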

How the results depend on the processing

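Alternatives were DESeq2, other size factors, no low-count filter, unadjusted p-values, a block on replicate number, a fit of all 46 libraries, and leaving out each library in turn (interactions then kept the trend of the full fit). A fit of the interactions without CLP, and a fit of the second set without libraries of more than 500 Mpo counts, were added after seeing the data. In pairwise comparisons the alternative of unadjusted p-values kept the 2-fold threshold, which the counts by unadjusted p given above did not apply. The count of members called in Tet2 KO against WT was 0 under all alternatives in LT-HSC, ST-HSC, CMP, GMP and MEP. In CLP it was 1 in the fit of all 46 libraries (Elane, adjusted p = 0.04345). WT GMP against CMP gave 1 in that fit and 6 with each library left out. WT GMP against CLP gave 4 by unadjusted p, 4 by DESeq2, 1 under the replicate block, 7 in the fit of all 46 libraries, and 2 to 3 with a library left out, Mpo being the member added. The CLP interaction gave 1 by unadjusted p, 1 by DESeq2 and 0 to 1 with a library left out. Sting KO against WT gave 1 by unadjusted p. The causes were not tested.

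Same-numbered libraries deviated together only weakly or not at all (correlations -0.0727 to 0.0759), so the numbers were not taken as pairs. Each library correlated best with its own number in WT GMP against CMP (4 of 4) and in WT GMP and WT CMP against ST-HSC (3 of 3 each). In the other WT comparisons this held for 3 of 4 in GMP against CLP and in CMP against MEP, 2 of 4 in GMP against MEP and 2 of 3 in GMP against LT-HSC. Between genotypes it held for 3 of 3 in LT-HSC and in ST-HSC, 2 of 4 in MEP, 1 of 4 in CMP and 0 of 4 in GMP and in CLP. The main tests took no account of the numbers, which entered only as a block in the alternatives. Under the replicate block differences that were not called changed sign for Nkg7 in LT-HSC (-0.21) and ST-HSC (-0.00425), Mpo in ST-HSC (-0.0211) and Ctsg in MEP (-0.28). Prtn3 in Sting KO against WT also changed sign, to -1.11, which is more than 2-fold and was not called. Prtn3 there was also -0.0593 with RLE size factors and -0.0589 with DESeq2. P4hb in GMP was 0.0203 in the fit of all 46 libraries. Without the libraries of most Mpo, Mpo was -0.48 in DKO against Sting KO and -0.73 against WT, and Calr in DKO against WT was -0.0328 without libraries whose Tmem173 counts went against the label.

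Leaving out 1 library at a time turned the sign of differences that were not called. For Tet2 KO against WT the lowest and highest values were, in LT-HSC, -0.21 and 1.31 for Elane, -0.22 and 1.09 for Ms4a3, -0.37 and 0.0342 for Calr, -0.27 and 0.50 for Nkg7, and -0.17 and 0.11 for Srgn. In ST-HSC they were -0.12 and 0.19 for Mpo, -0.99 and 1.47 for Elane, and -0.15 and 0.0610 for Srgn, and in CMP -0.26 and 0.0106 for Nkg7. In GMP they were -0.12 and 0.0379 for Elane, -0.0768 and 0.0863 for Ms4a3, -0.15 and 0.0247 for Nkg7, and -0.0848 and 0.0433 for P4hb. In MEP they were -1.46 and 0.24 for Elane, -0.44 and 0.80 for Ctsg, -0.27 and 0.0354 for Nkg7, -0.26 and 0.0307 for Srgn, and -0.0817 and 0.0861 for P4hb. Srgn in WT GMP against CMP ran from -0.00248 to 0.12. In DKO against Sting KO, Mpo ran from -0.49 to 4.88 and Calr from -0.46 to 0.23. In DKO against WT, Mpo ran from -3.81 to 4.04, Elane from -5.87 to 4.31, Ctsg from -6.20 to 4.74 and Calr from -0.0350 to 0.68. In Sting KO against WT, Prtn3 ran from -0.75 to 0.60 and Nkg7 from -0.10 to 0.74.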
